A study of Rattus norvegicus with 8 samples.

Results

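The elastic fibre genes described here are 10 genes of the vessel wall: Eln, Fbn1, Fbn2, Fbln1, Fbln2, Fbln5, Efemp1, Efemp2, Mfap4 and Mfap5. They were taken by name from a deposited table of 37209 gene rows, and all 10 had a row. The table holds RNA-seq read counts of 4 graft veins and 4 jugular veins as controls, all from Sprague Dawley rats (an outbred strain) and collected 1 week after the operation. In that operation the left common carotid artery was divided and its ends were everted over cuffs, and the jugular vein from the rat's opposite side served as the control. No genetic change or drug is given for either group, and neither sex nor age is stated in the labels. Titles number both groups 1 to 4, but the source names give the grafts as 9, 10, 3 and 5, so which graft and control form each of the 4 pairs named in the design text is not clear.

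Elastic fibres let a vessel wall recoil after it is stretched. Each fibre has a core of crosslinked elastin laid down on a scaffold of microfibrils, which are built mainly of fibrillins. Fibulins and microfibril-associated glycoproteins help to bring elastin, microfibrils and the lysyl oxidases that crosslink elastin together. In a vein wall, smooth muscle cells and fibroblasts are the main makers of these proteins, and elastin is made chiefly during growth and turns over slowly in the adult.

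Total counts ran from 10533451 to 16061189 in the graft veins and from 5981520 to 14267490 in the control veins. Levels are given as CPM, a gene's counts relative to the library's total after scaling by TMM (trimmed mean of M-values) factors. A gene with 3 counts has 0.182 to 0.240 CPM in graft veins and 0.225 to 0.560 CPM in control veins. The extract protocol names brain tissue, whereas the sample labels name veins. The 7 neuron and glia markers summed to 14.7 to 63.3 CPM in graft veins, against 41.2, 53.7, 649.5 and 599 CPM in control veins 1 to 4. Most of that was Mbp, a myelin protein that peripheral nerves also make, at 10.8 to 55.7 CPM in graft veins and at 37.1, 48.6, 647 and 592 CPM in control veins 1 to 4 (adjusted p = 0.0142, edgeR). The other 6 (Snap25, Syt1, Rbfox3, Slc17a7, Gad1 and Gfap) reached 5.20 CPM at most in graft veins and 4.11 CPM at most in control veins. Control veins 3 and 4 thus stand apart in Mbp, as they do in adipocyte markers. Smooth muscle markers summed to 1662 to 3296 CPM in graft veins and to 12404 to 20539 CPM in control veins. All 7 of them fell by the edgeR test described below, against 21.3% of all genes tested. Macrophage markers summed to 772 to 1186 CPM in graft veins and to 136 to 197 CPM in control veins. By the same test all 6 rose, against 21.0% of all genes tested. Adipocyte markers summed to 84.6 to 138 CPM in graft veins, against 386, 666, 1990 and 3087 CPM in control veins 1 to 4. Skeletal muscle markers summed to 534, 36.3, 335 and 799 CPM in graft veins 1 to 4. In control veins 1 to 4 they summed to 34.4, 27.7, 1288 and 176 CPM. Such bulk samples cannot tell fewer cells of a type from less RNA per cell.

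The promoters of 7 of the 10 genes were in the RefSeq table for the rat assembly GRCr8, whereas the reads were aligned to Rnor_6.0. Each promoter is 300 bases long, from 250 before to 50 after the gene's start. Those of the fibrillin pair, of Fbln2 (the second largest rise) and of Efemp1 (the only fall) are shown because these genes carry the differences described below. Capitals mark matches, on either strand, to AP-1 (TGANTCA), SP1 (GGGCGG), SMAD (CAGAC) or TEAD (GGAATG) motifs, and no 2 matches overlap in these 4 promoters. The sequences lie at chr18:53901943-53902242 (minus strand, Fbn2), chr3:133203341-133203640 (minus strand, Fbn1), chr4:125261409-125261708 (plus strand, Fbln2) and chr14:106811614-106811913 (plus strand, Efemp1).
Fbn2: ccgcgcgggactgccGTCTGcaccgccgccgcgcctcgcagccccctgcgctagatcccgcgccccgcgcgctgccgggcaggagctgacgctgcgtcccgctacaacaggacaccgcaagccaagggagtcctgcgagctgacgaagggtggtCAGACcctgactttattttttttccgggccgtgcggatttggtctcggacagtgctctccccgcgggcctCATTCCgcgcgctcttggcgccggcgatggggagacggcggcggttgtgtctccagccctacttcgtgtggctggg
Fbn1: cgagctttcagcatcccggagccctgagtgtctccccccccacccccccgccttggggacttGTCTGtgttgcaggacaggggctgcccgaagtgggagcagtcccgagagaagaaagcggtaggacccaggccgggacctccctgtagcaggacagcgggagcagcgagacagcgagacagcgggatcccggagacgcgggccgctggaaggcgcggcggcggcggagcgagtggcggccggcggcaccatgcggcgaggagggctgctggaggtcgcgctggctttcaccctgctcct
Fbln2: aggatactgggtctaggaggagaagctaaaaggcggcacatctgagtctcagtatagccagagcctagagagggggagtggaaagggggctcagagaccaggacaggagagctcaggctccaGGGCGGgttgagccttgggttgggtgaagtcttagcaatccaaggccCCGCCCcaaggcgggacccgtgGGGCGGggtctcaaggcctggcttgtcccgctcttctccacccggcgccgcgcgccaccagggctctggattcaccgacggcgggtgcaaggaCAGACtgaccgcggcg
Efemp1: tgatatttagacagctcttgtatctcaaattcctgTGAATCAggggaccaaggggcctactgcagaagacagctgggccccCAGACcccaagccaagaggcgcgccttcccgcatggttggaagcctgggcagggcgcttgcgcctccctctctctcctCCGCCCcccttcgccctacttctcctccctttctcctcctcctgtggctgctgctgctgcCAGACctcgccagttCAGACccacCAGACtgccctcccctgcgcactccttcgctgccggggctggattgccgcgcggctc

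The Fbn2 promoter held 2 SMAD matches and 1 TEAD match. The Fbn1 promoter held 1 SMAD match. That of Fbln2 held 3 SP1 matches and 1 SMAD match. In Efemp1 there were 4 SMAD matches, 1 SP1 match and 1 AP-1 match. Among 33469 rat promoters of the same length, 50.1% held the SMAD motif, 33.1% the SP1 motif, 14.2% the TEAD motif and 7.33% the AP-1 motif. None of the 7 promoters held a TATAAA or a CArG box (14.2% and 1.64% of all promoters). These are matches of letters only.

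Graft veins had more transcript of both fibrillins, of fibulin-2, of fibulin-4 (Efemp2) and of Mfap5 than control veins, and less of fibulin-3 (Efemp1). Elastin itself did not pass the test between the groups, and it varied 42.8-fold among graft veins. Of the 10 genes, 9 passed the filter on low counts. Of those 9, 5 rose, 1 fell and 3 did not pass, by the quasi-likelihood test of edgeR with p adjusted after Benjamini-Hochberg over 15464 genes (threshold 0.05). Over all genes tested 21.0% rose and 21.3% fell (42.3% in either direction). Scaled by library totals in place of TMM factors, 5 of the 9 genes rose and 0 fell, and over all genes 4558 rose and 2164 fell. The median log2 fold change, graft over control, was 0.76 over the 9 genes and 0.01 over all genes tested. Values of the 2 groups did not overlap for 4 of the 9 genes, against 40.6% of all genes. With control veins 3 and 4 left out, the libraries with the highest adipocyte sums, 2 of the 9 rose (Fbn2 and Fbln2) and 0 fell. Rises over all genes also dropped in that fit, which has fewer libraries, to 2525 from 3250. With p unadjusted, 4 rose and 0 fell in that smaller edgeR fit. The part that the shifts in cell type markers have in these differences was not tested.

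**Figure D1:**
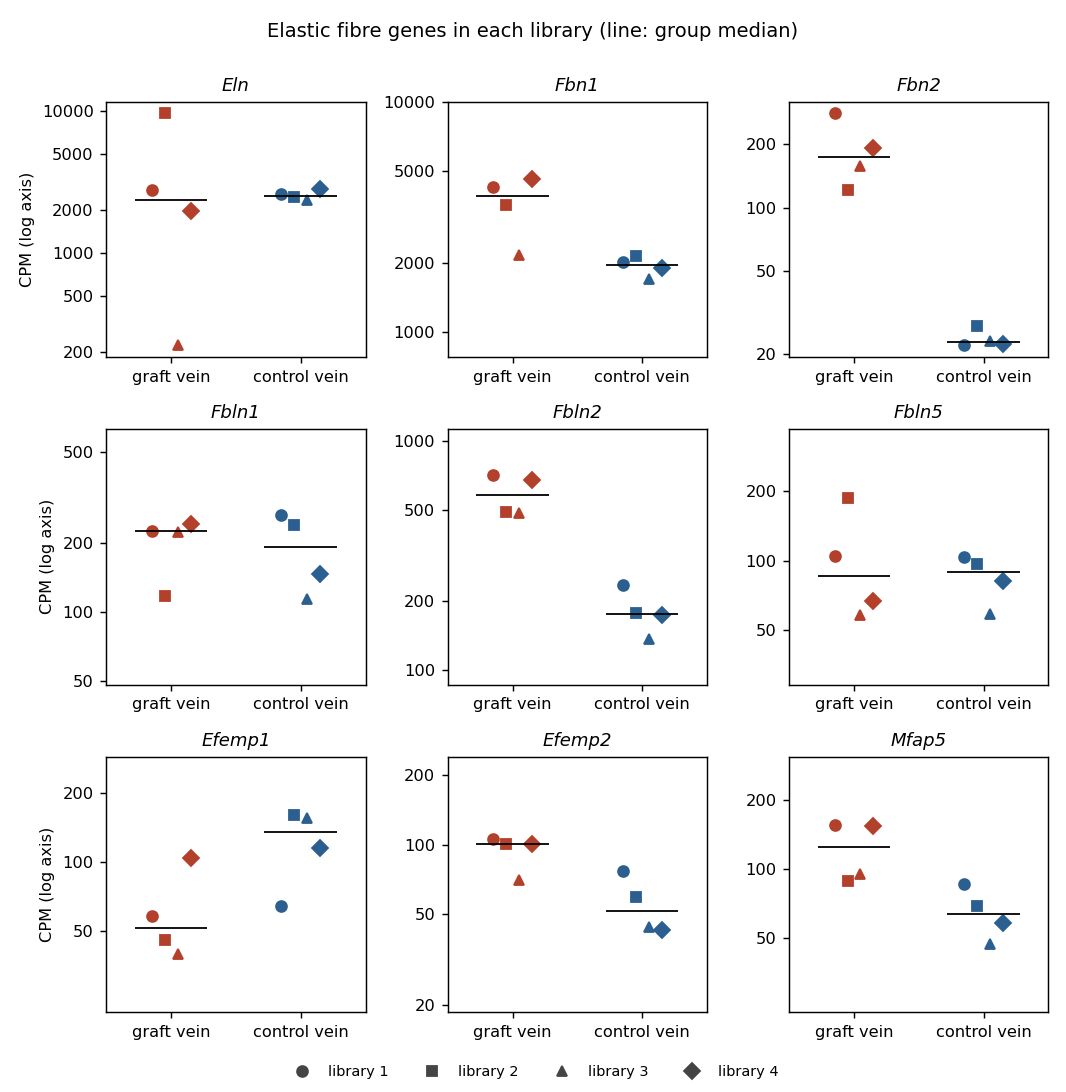
Level of 9 elastic fibre genes in CPM (log axis) in each of the 4 graft veins (left, red) and 4 control veins (right, blue), with a marker shape per library and a line at the group median. Eln runs from 224 to 9603 CPM in graft veins and from 2338 to 2833 CPM in control veins, while Fbn2 lies above all control veins in every graft vein.

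Eln encodes tropoelastin, the monomer of the elastic core. It stood at 2772, 9603, 224 and 1962 CPM in graft veins 1 to 4, against 2592, 2469, 2338 and 2833 CPM in control veins 1 to 4. Graft vein 2 was far above every control vein and graft vein 3 far below, while graft veins 1 and 4 lay close to the controls. The control veins differed by only 1.21-fold. The log2 fold change was 0.51 ± 0.78 (SE; adjusted p = 0.63, edgeR). Without graft vein 2 it was -0.63 and without graft vein 3 it was 0.92 (adjusted p = 0.472 and 0.167, edgeR). With all libraries kept it was -0.49 by limma voom and -0.38 by edgeR with a replicate block by title number. Its sign thus depends on graft vein 2 and on the method. The SD of log2 CPM was 2.25 among graft veins and 0.12 among control veins. Of 10577 genes that averaged 5 CPM or more in both groups, 24 had a larger SD among graft veins, and 9354 had a larger SD among control veins. The median SD of these genes was 0.19 in graft veins and 0.26 in control veins.

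Smooth muscle markers varied less among graft veins than Eln. Their sum was 3238, 3296, 1662 and 2835 CPM in graft veins 1 to 4, so graft vein 3 was lowest there too. The sum of 7 fibroblast markers was also lowest in graft vein 3, at 33147 CPM, and 53414 to 73140 CPM in the other grafts. Most of it was collagen, with Col1a1 at 13442.5 and Col3a1 at 17377.9 CPM in graft vein 3. Pdgfra, Dcn, Lum and Dpt were lowest there too. Pi16 was lowest in graft vein 1 (32.3 CPM, against 34.6 CPM in graft vein 3). Whether cell content bears on the Eln levels was not tested.

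The genes whose profile over the 8 libraries was most like that of Eln were Smoc1, Slc6a4 and Ptgis. Likeness was the root mean square difference of log2 CPM centred on each gene's own mean, and it was 0.46, 0.72 and 0.80 for these genes, the smallest among 15464 genes. Smoc1, a calcium-binding matrix protein related to SPARC, stood at 55.6, 152, 7.28 and 55.3 CPM in graft veins 1 to 4 and at 83.2 to 120 CPM across the control veins. Slc6a4, the serotonin transporter, stood at 2.61, 11.9, 0.800 and 4.17 CPM in the same graft veins and at 4.58 to 11.2 CPM in the control veins. Ptgis, the prostacyclin synthase, stood at 8.37, 24.1, 4.00 and 8.80 CPM in those graft veins and at 13.0 to 16.2 CPM in the control veins. In each of the 3, graft vein 2 was the highest graft and graft vein 3 the lowest. They were picked for likeness to Eln over these same libraries, so this shared order largely follows from the choice. For the same reason it is no separate result that none of the 3 passed the test between the groups (adjusted p = 0.525, 0.469 and 0.507, edgeR).

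**Figure D2:**
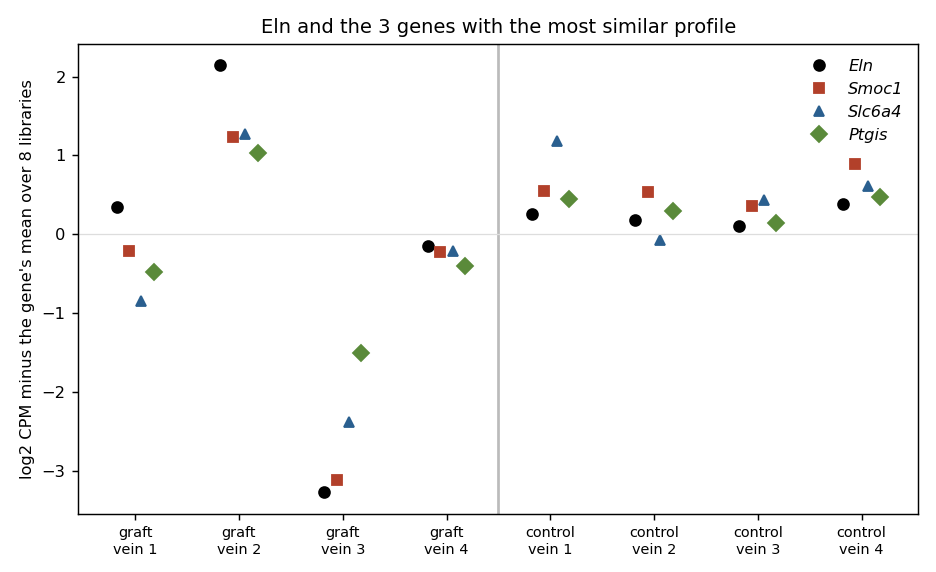
Log2 CPM of Eln, Smoc1, Slc6a4 and Ptgis, each minus its own mean over the 8 libraries, with graft veins 1 to 4 on the left and control veins 1 to 4 on the right. All 4 genes are highest among the grafts in graft vein 2 and lowest in graft vein 3, and Eln varies little among control veins. Smoc1, Slc6a4 and Ptgis were picked for likeness to Eln over these libraries, so the shared shape largely follows from the choice.

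Both fibrillins, the rods from which microfibrils are built, rose. Fbn2, a fibrillin best known from embryonic tissue, stood at 282, 122, 157 and 192 CPM in graft veins 1 to 4, against 22.0, 27.3, 23.1 and 22.4 CPM in control veins 1 to 4. The lowest graft was more than 4 times the highest control. On the log2 scale Fbn2 rose by 2.99 ± 0.25 (SE; adjusted p = 3.73e-05, edgeR), or 7.94-fold, and passed in all 16 alternative fits, from 2.74 to 3.21. Fbn1, the main fibrillin of adult tissue, stood at 4288, 3554, 2153 and 4620 CPM in graft veins 1 to 4 and at 2012, 2142, 1692 and 1903 CPM in control veins 1 to 4. Graft vein 3 came within 1% of the highest control vein but stayed above it. Fbn1 rose by 0.92 ± 0.24 (adjusted p = 0.0131, edgeR), with an adjusted p of 0.11 and a log2 fold change of 0.82 once control veins 3 and 4 were left out.

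Because 2 genes of 1 library share its depth and scaling, the ratio of their counts does not depend on either. For every Fbn2 read there were 15.2, 29.2, 13.7 and 24.0 Fbn1 reads in graft veins 1 to 4, against 91.2, 78.3, 73.2 and 84.6 in control veins 1 to 4. The ratio of Fbn2 to Fbn1 was thus higher in each graft vein than in any control vein. On the log2 scale it averaged -4.29 ± 0.52 in graft veins and -6.35 ± 0.14 in control veins (SD, n = 4 each), a difference of 2.06 (exact two-sided permutation p = 0.0286, the smallest that 4 against 4 libraries allow). It was 1 of 5 ratios tested, and adjusted over the 5 pairs the exact permutation p was 0.0714.

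The profiles nearest to that of Fbn2 belonged to LOC102554795, LOC102546968 and Zfp185, with root mean square differences of 0.26, 0.28 and 0.28. Zfp185 stood at 18.2, 13.8, 8.80 and 13.5 CPM in graft veins 1 to 4 and at 1.57 to 1.99 CPM in the control veins. All 3 rose (adjusted p = 4.15e-05, 0.00103 and 4.99e-05, edgeR). They were picked for likeness to Fbn2 over these same libraries, so their rise follows from the choice and is no separate result. LOC102546968 had no counts in the control veins and 0.901 to 1.54 CPM in graft veins. Its log2 CPM in the control veins is thus set by the prior of 2 counts, and its likeness to Fbn2 depends on that prior.

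Of the large fibulins, calcium-binding glycoproteins of the matrix, Fbln2 rose and Fbln1 did not pass the test. Fbln2, which binds fibrillin-1 and tropoelastin, stood at 710, 491, 483 and 673 CPM in graft veins 1 to 4, against 236, 177, 137 and 174 CPM in control veins 1 to 4. Every graft had at least 2 times the level of the highest control. Fbln2 rose by 1.70 ± 0.20 (SE; adjusted p = 0.000206, edgeR) and passed in all 16 alternative fits. Fbln1, found in the elastin core and in basement membranes, stood at 227, 118, 223 and 243 CPM in graft veins 1 to 4, against 265, 239, 114 and 147 CPM in control veins 1 to 4. The groups overlapped fully, and the log2 fold change was 0.08 ± 0.30 (adjusted p = 0.847, edgeR). The ratio of Fbln2 to Fbln1 was 3.13, 4.16, 2.17 and 2.77 in graft veins 1 to 4 and 0.889, 0.741, 1.20 and 1.19 in control veins 1 to 4, with no overlap. The mean log2 ratio differed by 1.60 (exact two-sided permutation p = 0.0286, and 0.0714 adjusted over the 5 pairs).

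Of the 3 short fibulins, Efemp2 rose, Efemp1 fell and Fbln5 did not pass the test. Efemp2, or fibulin-4, which links lysyl oxidase to tropoelastin, stood at 106, 101, 69.7 and 101 CPM in graft veins 1 to 4, against 76.4, 59.4, 43.6 and 42.4 CPM in control veins 1 to 4. Graft vein 3 lay below control vein 1, so the groups overlapped. Efemp2 rose by 0.76 ± 0.21 (SE; adjusted p = 0.0168, edgeR), or by 0.48 with control veins 3 and 4 left out (adjusted p = 0.128, edgeR). Fbln5, which binds tropoelastin and cell-surface integrins, stood at 104, 187, 57.7 and 66.6 CPM in graft veins 1 to 4, against 103, 96.8, 58.4 and 81.4 CPM in control veins 1 to 4. As for Eln, graft vein 2 was the highest and graft vein 3 the lowest of all 8 libraries. The log2 fold change of Fbln5 was 0.29 ± 0.35 (adjusted p = 0.537, edgeR), and -0.15 without graft vein 2.

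Efemp1, or fibulin-3, stood at 57.9, 45.6, 39.7 and 104 CPM in graft veins 1 to 4, against 64.0, 160, 156 and 115 CPM in control veins 1 to 4. Graft vein 4 was above control vein 1, so the groups overlapped. Efemp1 fell by 1.00 (log2) with an SE of 0.35 (adjusted p = 0.0454, edgeR). The fall is near the threshold: it passed in 6 of 16 alternative fits and missed it in 10, with adjusted p from 0.01 to 0.198. Of the fits with 1 library left out, it passed without graft vein 4 or control vein 1 and missed without any of the other 6 libraries. The log2 fold change was negative in all 16, from -1.37 to -0.78. The ratio of Efemp2 to Efemp1 was 1.83, 2.21, 1.76 and 0.966 in graft veins 1 to 4, against 1.19, 0.371, 0.280 and 0.368 in control veins 1 to 4. The mean log2 ratio differed by 1.81 (exact two-sided permutation p = 0.0571, and 0.0952 adjusted over the 5 pairs).

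The core was also set against its scaffold and its assembly fibulin. Counts of Eln per count of Fbn1 were 0.646, 2.70, 0.104 and 0.425 in graft veins 1 to 4, against 1.29, 1.15, 1.38 and 1.49 in control veins 1 to 4. In 3 grafts the ratio lay below all controls and in graft vein 2 above them. The mean log2 ratio differed by -1.33 (exact two-sided permutation p = 0.229, and 0.286 adjusted over the 5 pairs). For every Fbln5 count there were 26.5, 51.5, 3.89 and 29.4 Eln counts in graft veins 1 to 4, against 25.1, 25.5, 40.0 and 34.8 in control veins 1 to 4. Graft vein 3 stands apart there, and the difference in mean log2 ratio of Fbln5 to Eln was 0.63 (exact two-sided permutation p = 0.714, also when adjusted).

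**Figure D3:**
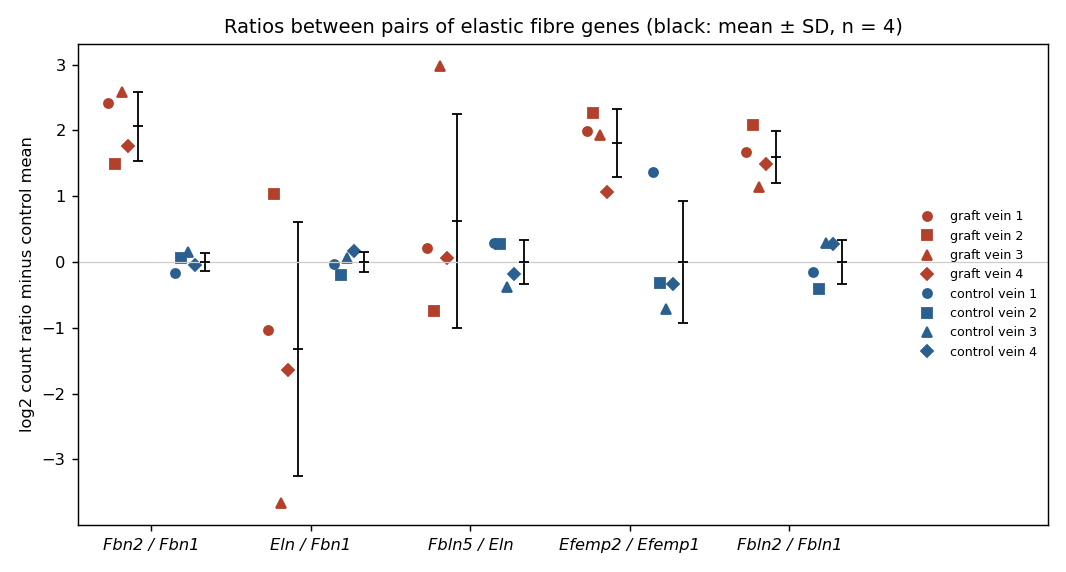
Log2 ratio of counts for 5 pairs of elastic fibre genes in each library, with the mean of the control veins set to 0. Graft veins (red) stand left of control veins (blue) in each pair, and black marks give the mean ± SD (n = 4). Graft and control veins do not overlap for Fbn2 over Fbn1 and Fbln2 over Fbln1, and Eln over Fbn1 spreads widely among graft veins.

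Of the microfibril-associated proteins, Mfap5 (MAGP-2), which binds fibrillins, stood at 156, 89.2, 95.2 and 154 CPM in graft veins 1 to 4, against 86.2, 69.0, 47.2 and 58.6 CPM in control veins 1 to 4. The groups did not overlap, but graft vein 2 and control vein 1 lay close together. Mfap5 rose by 0.92 ± 0.24 (SE; adjusted p = 0.0132, edgeR), or by 0.68 with control veins 3 and 4 left out (adjusted p = 0.112, edgeR). Mfap4, a fibrinogen-related protein of elastic fibres, had 2, 1, 0 and 1 counts in graft veins 1 to 4 and 13, 1, 0 and 0 counts in control veins 1 to 4. It fell under the filter and was not tested. Mfap4 is usually abundant in vessel walls, and no source used here names the counter or annotation behind the table, so whether these counts reflect its level is not known.

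The libraries did not rank alike across the 9 tested genes. Graft vein 3 was the lowest graft for 6 of them, namely Eln, Fbn1, Fbln2, Fbln5, Efemp1 and Efemp2. Graft vein 2 was lowest for the other 3, and was highest for Eln and Fbln5. Graft vein 1 was the highest graft for Fbn2, Fbln2, Efemp2 and Mfap5, and graft vein 4 for Fbn1, Fbln1 and Efemp1. Among control veins, control vein 3 was lowest for 6 of the 9. It also had the highest skeletal muscle marker sum, at 1288 CPM, and whether that bears on these levels was not tested. Apart from Eln, the levels varied 1.47-fold to 3.24-fold among graft veins and 1.24-fold to 2.50-fold among control veins. Except for Fbln2 and Efemp2, each gene had an SD among graft veins above that of at least 89.9% of the 10577 genes compared.

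Among 16 partners of microfibrils and fibre assembly, 3 rose and 5 fell (of all genes tested, 21.0% and 21.3%), while 8 missed the threshold. Their median log2 fold change was 0.16 (0.01 over all genes). Ltbp2, a fibrillin-binding relative of the latent TGF-beta binding proteins, averaged 534 ± 180 CPM in graft veins and 30.3 ± 14.7 CPM in control veins (SD, n = 4 each), which is 4.13 ± 0.40 higher in log2 (SE; adjusted p = 6.71e-05, edgeR). Emilin1, a glycoprotein between the elastin core and microfibrils, rose by 1.59 (adjusted p = 0.00374, edgeR), and Adamtsl2, an ADAMTS-like microfibril protein, rose by 1.49 (adjusted p = 0.000989, edgeR). On the other side, Thsd4 (ADAMTS-like 6), which promotes fibrillin-1 assembly, averaged 39.4 ± 11.7 CPM in graft veins and 466 ± 168 CPM in control veins, a log2 difference of -3.56 ± 0.31 (adjusted p = 4.18e-05, edgeR). Mfap2 (MAGP-1), the close relative of Mfap5, fell to 14.4 ± 2.95 CPM in graft veins, against 40.3 ± 11.2 CPM in control veins (adjusted p = 0.00086, edgeR). Ltbp4, needed for elastin assembly with fibulin-4 and fibulin-5, averaged 202 ± 36.4 CPM in graft veins and 434 ± 180 CPM in control veins (adjusted p = 0.0137, edgeR). For Ltbp4 the groups overlapped, with graft vein 1 (248 CPM) above control vein 3 (220 CPM). The rises numbered 5 without control vein 1. Over all genes, rises numbered 2845 to 4054 in the fits with 1 library left out, against 3250 with all libraries.

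Of 6 crosslinking genes, 2 rose and 1 fell (of all genes tested, 21.0% and 21.3%), while 3 missed the threshold (median log2 fold change 0.43). Loxl1, the lysyl oxidase most tied to elastic fibre upkeep, stood at 366, 265, 222 and 308 CPM in graft veins 1 to 4, against 92.3, 77.9, 46.6 and 57.3 CPM in control veins 1 to 4. Every graft was above every control, and Loxl1 rose by 2.08 ± 0.24 (SE; adjusted p = 0.000159, edgeR). Lox itself stood at 890, 1081, 318 and 619 CPM in graft veins 1 to 4, against 841, 1180, 849 and 908 CPM in control veins 1 to 4 (adjusted p = 0.377, edgeR). As for Eln, graft vein 2 was the highest graft and graft vein 3 the lowest. Loxl3 rose by 0.71 (adjusted p = 0.0112, edgeR) and Loxl4 changed by -1.96 (adjusted p = 0.00142, edgeR). The rises numbered 4 with library totals in place of TMM factors and 1 with control veins 3 and 4 left out, where Loxl3 missed (adjusted p = 0.0998, edgeR). Over all genes, 4558 rose in the first of these fits and 2525 in the second, against 3250 in the main fit.

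Of 10 elastin-degrading enzymes, 7 were tested and 6 of these rose by edgeR, against 21.0% of all genes tested. The median log2 fold change of the 7 was 1.81. None fell by edgeR, DESeq2 or limma voom, also with p unadjusted. The rises numbered 6 by DESeq2 and 5 by limma voom, where the gelatinase Mmp9 missed (adjusted p = 0.0505). The other gelatinase, Mmp2, rose by 0.66 (adjusted p = 0.0356, edgeR) but missed in 6 of the 8 fits with 1 library left out, passing only without graft vein 3 or control vein 1, and had an adjusted p of 0.258 (edgeR) with control veins 3 and 4 left out. Both gelatinases were named after their values were seen. Mmp12, the macrophage elastase, stood at 189, 602, 74.4 and 372 CPM in graft veins 1 to 4 and at 0.225, 0.199, 0.753 and 0 CPM in control veins 1 to 4. Graft vein 2 was highest and graft vein 3 lowest among the grafts, the same 2 libraries as for Eln. Ctss, the elastolytic cathepsin of myeloid cells, averaged 209 ± 49.7 CPM in graft veins and 30.5 ± 8.96 CPM in control veins (SD, n = 4 each; adjusted p = 4.99e-05, edgeR). Macrophage markers were higher in every graft vein, as given above, and their part in these rises was not tested. Of the enzymes not tested, Mmp7 reached 3.61 CPM in graft veins, and Elane and Prtn3, elastases of neutrophil precursors, stayed at or below 0.320 CPM in every library.

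Of 8 inhibitors of these enzymes, 3 rose and 3 fell (of all genes, 21.0% and 21.3%), while 2 missed the threshold (median log2 fold change -0.01). Slpi, a secreted inhibitor of leukocyte elastase, averaged 46.7 ± 21.4 CPM in graft veins and 0.825 ± 0.858 CPM in control veins (SD, n = 4 each; adjusted p = 9.02e-05, edgeR). A2m, a broad protease trap of plasma, had 136 counts in the graft veins and 1 in the control veins, 95.7-fold higher after scaling (exact 95% binomial interval 16.9 to 3805, counting error only). Timp4, a tissue inhibitor of metalloproteinases, averaged 6.38 ± 0.827 CPM in graft veins and 36.6 ± 18.0 CPM in control veins (adjusted p = 0.000335, edgeR). Serpina1, the inhibitor of neutrophil elastase, had 3 counts in the graft veins and 130 in the control veins, where it was 61.6-fold higher (exact 95% binomial interval 20.6 to 303).

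Among 11 genes of the elastin receptor complex and of integrins that bind fibrillins or fibulins, 4 rose and 1 fell. Shares over all genes tested were 21.0% and 21.3%. The other 6 missed the threshold, and the median log2 fold change of the 11 was 0.46. The 3 genes behind the elastin receptor complex all rose. Ctsa rose by 1.11 ± 0.17 (SE, adjusted p = 0.000682, edgeR) and Neu1 by 1.42 ± 0.23 (adjusted p = 0.0012, edgeR). Glb1 rose by 1.95 (adjusted p = 0.00204, edgeR). Glb1 was named after its values were seen. Products of these genes also work in lysosomes, and counts per gene do not separate transcript forms. A rise of the receptor complex itself is thus not shown. Itgb1, the shared beta chain of many matrix receptors, averaged 1170 ± 271 CPM in graft veins and 1768 ± 290 CPM in control veins (SD, n = 4 each; adjusted p = 0.0442, edgeR). That fall missed the threshold in 11 of 16 alternative fits, including every fit that left out 1 library other than control vein 1.

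**Figure D4:**
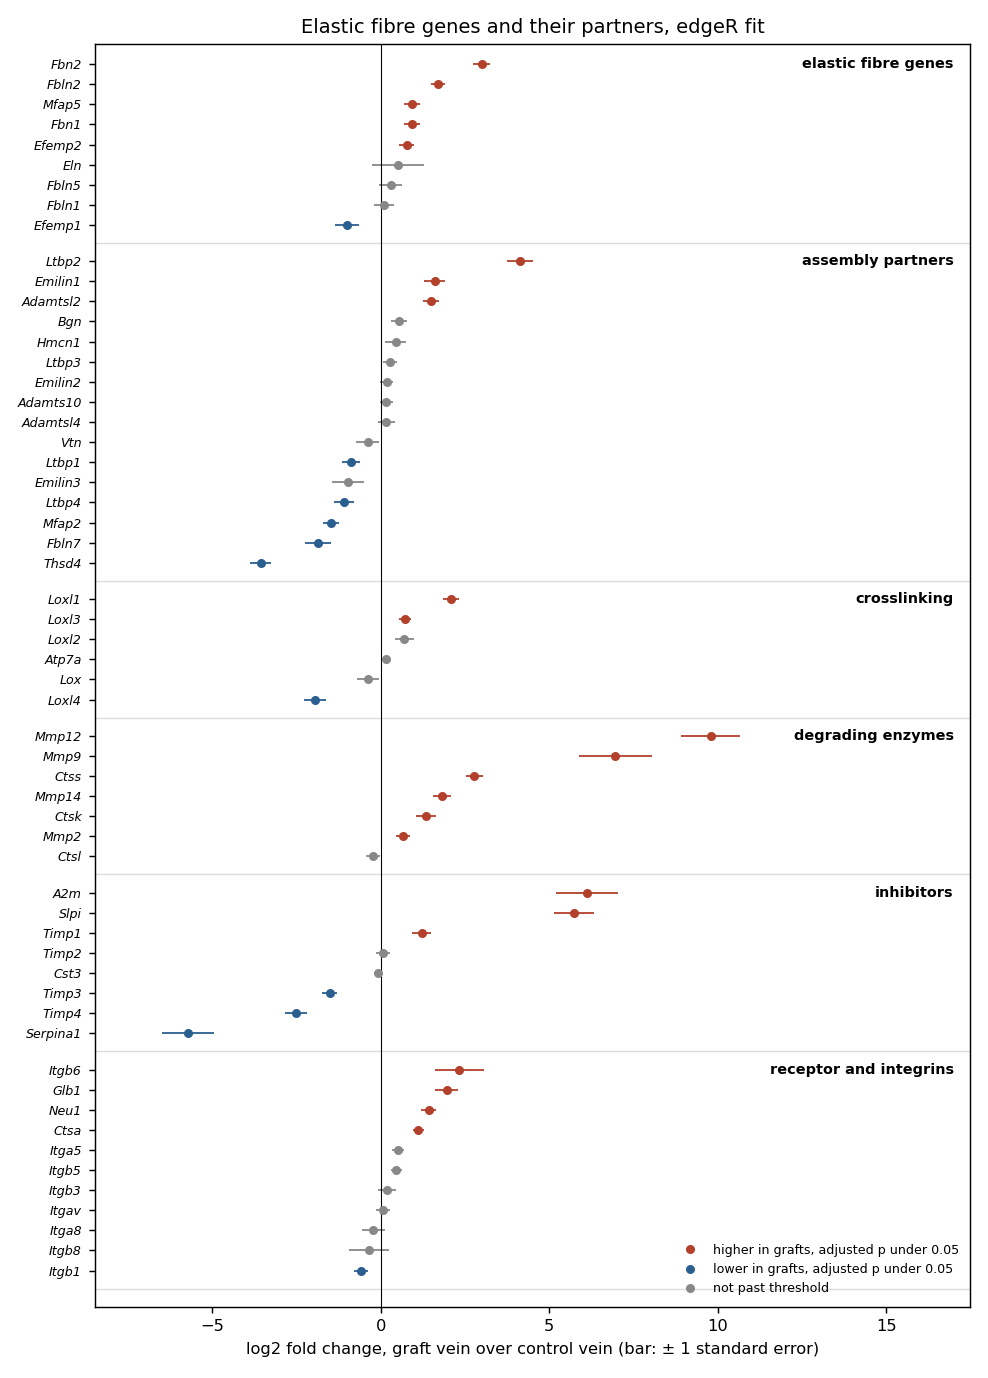
Log2 fold change, graft vein over control vein, with its standard error for every tested elastic fibre gene and partner, grouped by role and sorted within each group. Red points rose, blue points fell and grey points did not pass the edgeR threshold. Fbn2 leads the elastic fibre genes at 2.99 and Efemp1 is lowest. The points of A2m and Serpina1, with 3 counts or fewer in 1 group, depend on the prior count of the fit.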

How the data were processed

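Total RNA of 4 graft veins and 4 control jugular veins went into Illumina libraries, per the labels' protocols. HISAT2 2.0.4 aligned the reads to Rnor_6.0, per the submitters' processing notes. For the counter, the annotation and strand, nothing is given in the sources used here. The authors deposited raw counts per gene, all whole numbers, 1 column per library. Without strand, a gene and its antisense neighbour cannot be separated.

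Counts were analysed with edgeR 4.0.16 in R 4.3.3: filterByExpr with a minimum count of 10, TMM factors, glmQLFit and glmQLFTest over 15464 genes, Benjamini-Hochberg adjustment, threshold 0.05. The SE is the absolute log2 fold change over the square root of F. Ratios between 5 pairs of genes used counts plus 0.5 and an exact permutation test over 70 splits. Log2 CPM used a prior of 2 counts. Alternatives were DESeq2 1.42.0, limma 3.58.1 (voom), other scalings, no filter, a replicate block and left-out libraries. The procedures were tested on simulated data.

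The gene list, the partner and marker lists, the tests and the rule for named partners (the 2 smallest p in each direction per list, plus Lox, Loxl1, Ltbp4, Mfap2, Emilin1 and Mmp12) were chosen with earlier results of these data known. Gene lengths were not used, so levels are not compared between genes. No label says whether samples of a group came from separate animals, so p-values measure the spread between these libraries. Within each group, no 2 libraries agreed within sampling noise (chi-square per degree of freedom of at least 24.5). Of the other marker lists, in edgeR's test, 3 of 7 fibroblast markers fell and 1 rose, and 3 of 6 endothelial markers fell. All 4 of 4 T cell markers rose, 6 of 6 adipocyte markers fell and 1 of 6 skeletal muscle markers rose. Further, 1 of 3 tested neuron and glia markers fell, 2 of 2 tested mesothelial markers rose and 3 of 4 tested cartilage markers rose. Shares over all genes tested were 21.0% that rose and 21.3% that fell.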

Additional observations from a re-analysis of the deposited data

Results flagged for a closer look

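Of 56 groups of 4 libraries checked (28 genes in graft veins and in control veins), 6 had a library whose gap to its nearest neighbour exceeded Dixon's critical value at the 95% level; chance flags about 1 group in 20. Fbln1 stood at 118 CPM in graft vein 2, against 223 to 243 CPM in the other graft veins. Efemp2 was at 69.7 CPM in graft vein 3, while the other graft veins had 101 to 106 CPM. For Ltbp2, graft vein 3 had 268 CPM and the others 600 to 662 CPM. Thsd4 reached 56.8 CPM in graft vein 1, with 31.7 to 35.0 CPM in the others. The 2 remaining cases rest on very few counts: Serpina1 was at 0.225 CPM in graft vein 2 and at 0 in the other grafts, and A2m was at 0.187 CPM in control vein 4 and at 0 in the other controls. Eln in graft veins, despite its spread, was not among the 6.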

How the results depend on the processing

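The directions of Fbn1, Fbn2, Fbln2, Efemp1, Efemp2 and Mfap5 held in all 16 alternative fits. The 5 rises remained 5 in each fit with 1 library left out and numbered 2 with control veins 3 and 4 left out. In that last fit the rises over all genes numbered 2525, against 3250 with all libraries. The 1 fall, Efemp1, became 0 with library totals alone, with upper-quartile factors, with the replicate block by title number or with control veins 3 and 4 left out, and numbered 0 to 1 with 1 library left out. At an unadjusted p under 0.05, edgeR still gave 1 fall with the first 3 of these settings. DESeq2 and limma voom each gave 1 fall. With library totals alone the median over all genes tested was 0.23 (log2), and 2164 genes fell, against 3288 with TMM factors. The sign of Eln, which never passed, turned with limma voom (-0.49) and with the replicate block (-0.38). The title numbers were not taken as pairs because the source names number the grafts otherwise. Same-numbered samples correlated at -0.07 to 0.18 in their deviations from the group means. Such a correlation cannot show whether 2 samples come from 1 animal. The block otherwise changed no call among the 9 genes. Itgb8, not past the threshold with all libraries (-0.35), rose by 1.40 with control veins 3 and 4 left out. None of the 5 ratios between pairs passed the threshold after adjustment, with a prior of 0.5 or of 2 counts. Every count behind these ratios was at least 120, so the change of prior could move them little. The ratio of Fbln5 to Eln turned to -0.16 without graft vein 3. With 0 to 13 counts a library, Mfap4 could not be compared.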
